A study of Homo sapiens with 18 samples.

Results

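MycER activation at 24 h under a control siRNA was examined in 4 of the 18 RNA-seq libraries of the series, by comparing the 2 siCtrl OHT libraries with the 2 siCtrl libraries. U2OS cells come from a human bone tumour (osteosarcoma), and their U2OS-MycER derivative carries a retrovirally transduced fusion of Myc with the hormone-binding part of the estrogen receptor. All cells received an siRNA by reverse transfection (siCtrl, against Renilla luciferase, which the cells lack) and, at that moment, either 400 nM 4-hydroxytamoxifen (OHT) or ethanol, and RNA was taken 24 h later. The remaining 14 libraries hold the same treatments at 48 h and cells depleted of the cohesin subunit RAD21 (siRAD21). Every group carries MycER and no library comes from OHT-treated cells without it, so that MycER activity and other actions of OHT cannot be told apart.

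Myc is a transcription factor of the basic helix-loop-helix leucine zipper family. With its partner MAX it binds E-boxes, of which CACGTG is the canonical form, at the promoters of genes for ribosome production, nucleotide synthesis and metabolism, and it lowers other genes, among them inhibitors of the cell cycle and genes of cell adhesion. MycER is held outside the nucleus in complexes with chaperones until OHT binds its receptor part, which makes it a switch for Myc activity. In libraries from whole cultures, fewer cells of a type and less RNA per cell cannot be told apart.

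Values are eRPKM, exonic reads scaled by transcript length and by library depth (RPKM), deposited for 23399 genes. Tests covered the 14993 genes whose eRPKM averaged 1 or more over the 18 libraries, with limma on log2(eRPKM + 0.5), so that fold changes understate those of genes with low values. A gene is said to have risen or fallen when its adjusted p was below 0.05, and it was called when its log2 fold change was also past 0.5 in either direction. Reads recovered from the values gave depths of 10941845 and 12678599 reads for siCtrl and of 12304530 and 11479976 for siCtrl OHT. Libraries of a group correlated across genes at r = 0.9928 (siCtrl) and r = 0.9938 (siCtrl OHT) on the log2 scale. The removal of duplicates of 50-base reads should hold each gene to 2 reads per exon base. This ceiling is inferred from the read length and the recovered depths, not stated in the sources, and is 157.7 to 182.8 eRPKM in these 4 libraries, where the highest value was 170.9. Between 151 and 189 genes lay above 50% of it.

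At 24 h, 551 genes were called higher in siCtrl OHT cells (3.68% of those tested) and 765 were called lower (5.10%), or 1316 in all (8.78%). By adjusted p alone, 1878 genes rose (12.5%) and 2097 fell (14.0%). Values of the 2 groups did not overlap for 4283 genes that were higher with OHT (28.6%) and for 4721 that were lower (31.5%). Most changes were small. Only 129 calls lay above a log2 fold change of 1 and 95 lay below -1, and the median absolute change was 0.71 among genes called higher and 0.66 among those called lower. Genes called had lower levels than the rest, with a median of 6.73 eRPKM for those called higher, 4.71 for those called lower and 14.5 for those not called. The share called higher was 5.38% at 1 to 5 eRPKM, 1.59% at 20 to 50 and 0.187% at 50 to 100, and 0 of the 78 genes above 100 eRPKM were called in either direction, although 2 of them rose. Of the calls, 11 higher and 13 lower rested on fewer than 10 reads in each of the 4 libraries. Among them was the largest fall, that of the microRNA gene MIR105-2 (log2 fold change -3.05), which had 4 and 3 reads in siCtrl and 0 in both siCtrl OHT libraries and is named here after its values were seen.

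**Figure D1:**
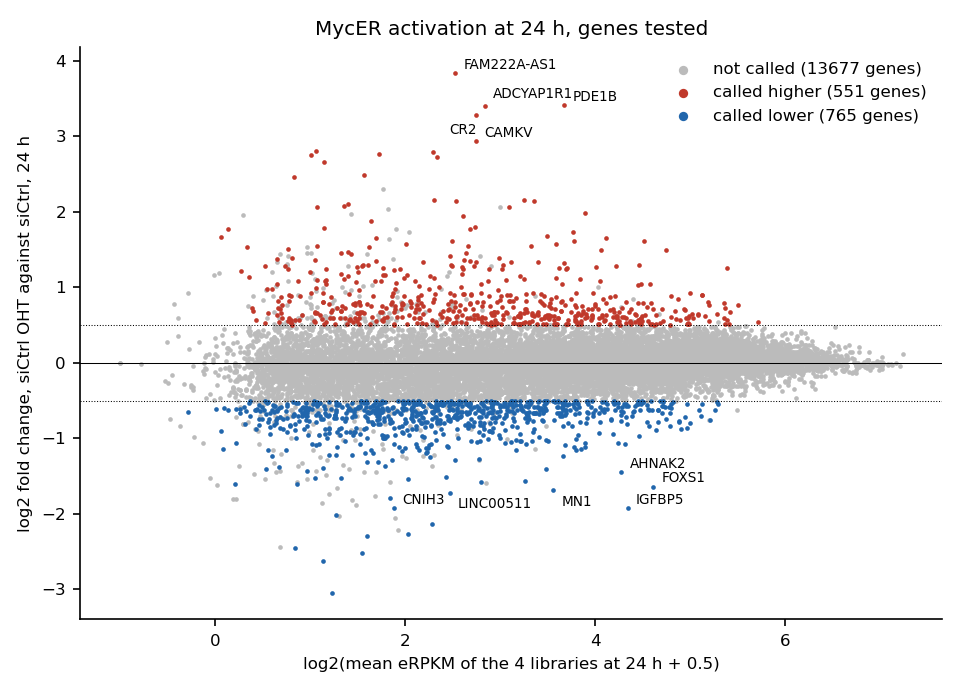
Each point is a gene tested, with the log2 of its mean eRPKM (+ 0.5) over the 4 libraries at 24 h on the x axis and its log2 fold change with OHT on the y axis; dotted lines mark 0.5 and -0.5, red marks the 551 genes called higher and blue the 765 called lower. The spread of changes narrows to the right. The median absolute log2 fold change was 0.22 for genes averaging 1 to 5 eRPKM over the 18 libraries, 0.11 at 20 to 50 and 0.033 above 100. With the removal of duplicates undone by calculation it was 0.222, 0.123 and 0.057. At 50 to 100 eRPKM the median was 0.072, and 0.093 with the removal undone. Genes at the far right come nearest to the ceiling inferred from the removal of duplicates. The cause of the narrowing was not tested.

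The genes of the switch itself were looked at first. MYC had 55.2 and 51.7 eRPKM in siCtrl and 41.0 and 41.2 in siCtrl OHT, a fall below the threshold for a call (log2 fold change -0.37 ± 0.069, SE, adjusted p = 0.00129). Reads of endogenous MYC and of the MycER transgene cannot be told apart in these values. MAX, the partner of Myc, rose from 34.3 and 32.4 to 37.2 and 40.2 eRPKM (0.21 ± 0.051, adjusted p = 0.00710). ESR1, whose hormone-binding part MycER carries, stood at 0.449 and 0.366 eRPKM in siCtrl and at 0.233 and 0.368 in siCtrl OHT, and was below the level for testing. Of the 12 genes of the MYC and MAX network tested, 3 rose and 4 fell, beside 12.5% and 14.0% of all genes. Among the 12, 2 were called, both lower, beside 5.10% of all genes. MXD4, a MAX-binding repressor that competes with Myc, had 8.69 and 8.01 eRPKM in siCtrl and 4.2 and 4.81 in siCtrl OHT (-0.82 ± 0.076, adjusted p = 4.66e-06). MYCL, a paralog of MYC, went from 5.11 and 5.37 to 2.77 and 2.83 eRPKM (-0.80 ± 0.11, adjusted p = 1.27e-04). RAD21 was at 72.2 and 69.3 eRPKM without OHT and at 66.4 and 71.0 with it, and these ranges overlap. The 14 genes of cohesin and its loaders, with CTCF, had a median log2 fold change of -0.040, beside -0.0085 over all genes tested, with 1 rise and 1 fall.

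The 12 largest rises and falls were taken among called genes that averaged 5 eRPKM or more in either group, leaving out microRNA and small nucleolar RNA symbols. FAM222A-AS1, a long noncoding RNA gene at chr12:110171971-110211313 (GRCh37, the build of the alignments), had 0.316 and 0.182 eRPKM in siCtrl and 9.18 and 11.3 in siCtrl OHT. Its reads went from 5 in the siCtrl libraries together to 211 in the siCtrl OHT libraries, a ratio of 41.9 at equal depth with an exact 95% interval of 17.7 to 130 that covers counting error only, and its log2 fold change was 3.84 ± 0.19 (adjusted p = 1.95e-08). PDE1B, a calcium- and calmodulin-dependent phosphodiesterase gene at chr12:54943385-54973023, went from 1.4 and 2.02 to 22.3 and 23.6 eRPKM (3.42 ± 0.13). It shares 443 exon bases with PPP1R1A, and the library kit keeps no strand, so that reads of the shared part cannot be assigned. These genes were thus low in both siCtrl libraries and well expressed in both siCtrl OHT libraries.

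ADCYAP1R1, the receptor of the neuropeptide PACAP, at chr7:31091923-31151088, had 0.673 and 0.805 eRPKM in siCtrl and 13.1 and 12 in siCtrl OHT (3.4 ± 0.14). CR2, a complement receptor best known from B cells, at chr1:207626369-207663240, had 0.811 and 0.719 and then 12.3 and 11.2 eRPKM (3.28 ± 0.12). CAMKV, a kinase-like protein of synaptic vesicles, had 0.940 and 1.16 and then 11.4 in both OHT libraries (2.94 ± 0.10). Each of the 3 was near 1 eRPKM or lower without OHT and above 11 with it. The other 7 rises named by rule reached 4.16- to 6.90-fold on the log2(eRPKM + 0.5) scale. SLC27A2 activates very long-chain fatty acids (log2 fold change 2.79), G0S2 inhibits the main lipase of fat droplets (2.16), MATK is a tyrosine kinase of blood cells (2.73), EPHA8 is an ephrin receptor (2.16), RGS16 shortens G protein signals (2.15), PDZRN3 is a ubiquitin ligase (2.14) and DPP10-AS1 is a noncoding RNA (2.06). All 12 had adjusted p-values between 1.18e-09 and 1.79e-06, and in none did the 2 groups overlap, which the rule required.

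**Figure D2:**
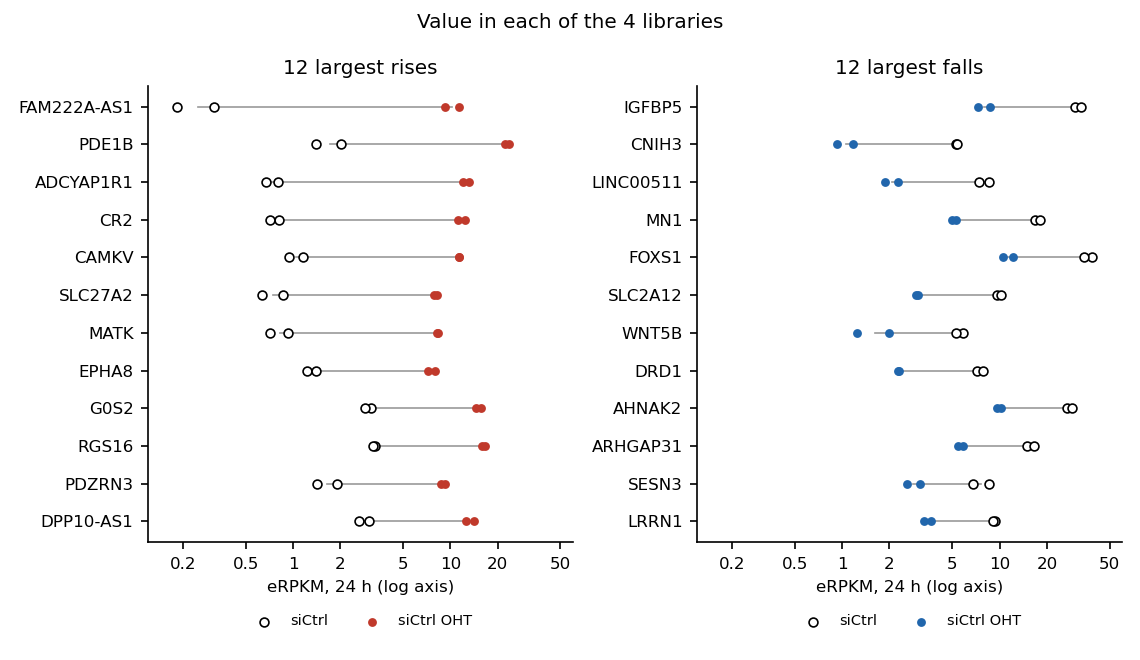
The eRPKM of the 12 genes with the largest rises (left) and falls (right) is shown on a log axis, with 1 point per library (open, 2 siCtrl; filled, 2 siCtrl OHT) and a line between the group means. Values in siCtrl were at most 3.30 eRPKM for the rises and at least 5.26 for the falls, but the rule, which asked for a mean of 5 eRPKM in 1 group, fixes that falls start at 5 or more.

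Promoters were searched for the E-box CACGTG, which reads the same on both strands, in the RefSeq windows from 250 bases before to 50 after each start site (GRCh38.p14). Of the 12 largest rises, all have a window in the table and 4 hold the motif. Of the 12 largest falls, 10 have a window and 1 holds it, that of DRD1. The sequences of the 3 strongest rises with an E-box, and of the called genes of nucleotide synthesis that hold one (DHODH and DCTPP1, described below), are given 5′ to 3′ for the 250 bases before the start site, with the E-box in capitals, because they show where it lies in genes that changed with OHT. A match is a description of the letters and says nothing of binding.
FAM222A-AS1, chr12:109773488-109773737, minus strand: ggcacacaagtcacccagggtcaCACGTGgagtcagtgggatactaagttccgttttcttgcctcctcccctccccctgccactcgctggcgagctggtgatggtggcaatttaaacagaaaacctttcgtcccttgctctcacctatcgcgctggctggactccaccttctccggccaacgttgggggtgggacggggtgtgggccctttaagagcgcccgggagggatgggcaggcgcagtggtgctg
CR2, chr1:207454078-207454327, plus strand: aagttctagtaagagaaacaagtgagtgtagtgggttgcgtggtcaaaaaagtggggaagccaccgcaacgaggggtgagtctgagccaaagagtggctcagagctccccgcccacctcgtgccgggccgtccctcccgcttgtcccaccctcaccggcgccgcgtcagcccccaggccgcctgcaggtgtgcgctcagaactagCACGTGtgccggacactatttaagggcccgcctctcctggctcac
EPHA8, chr1:22563239-22563488, plus strand: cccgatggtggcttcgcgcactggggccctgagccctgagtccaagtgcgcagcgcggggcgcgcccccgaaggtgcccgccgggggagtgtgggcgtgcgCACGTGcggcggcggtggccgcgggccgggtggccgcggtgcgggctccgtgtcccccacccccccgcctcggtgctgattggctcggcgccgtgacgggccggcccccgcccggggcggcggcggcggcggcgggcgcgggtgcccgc
DHODH, chr16:72008494-72008743, plus strand: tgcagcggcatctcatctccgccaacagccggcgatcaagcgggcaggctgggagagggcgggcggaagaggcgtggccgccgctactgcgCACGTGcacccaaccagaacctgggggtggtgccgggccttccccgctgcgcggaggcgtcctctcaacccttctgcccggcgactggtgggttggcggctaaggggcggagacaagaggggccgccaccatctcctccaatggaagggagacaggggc
DCTPP1, chr16:30429801-30430050, minus strand: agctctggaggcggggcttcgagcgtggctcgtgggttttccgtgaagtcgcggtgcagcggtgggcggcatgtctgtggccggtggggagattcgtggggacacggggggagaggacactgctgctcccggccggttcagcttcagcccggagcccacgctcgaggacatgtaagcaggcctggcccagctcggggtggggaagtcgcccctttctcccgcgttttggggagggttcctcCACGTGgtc
The motif began 227 bases before the start site of FAM222A-AS1, with a second copy at base 5 of the transcript, and 45 bases before that of CR2. In EPHA8 and DHODH it lay farther upstream, at 149 and 159 bases. In DCTPP1 it began 9 bases before the start site of the window. The stretch printed for DCTPP1 holds a start codon followed by an open reading frame. It is thus likely transcript in part, and its E-box may lie within the gene, downstream of another start site.

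Over all genes tested, 11168 have a promoter window, 733 of them through an older symbol. The E-box was found in 17.0% of the 407 genes called higher that have a window, in 8.44% of the 545 called lower and in 12.4% of the 10216 not called. Among all 27305 genes of the promoter table the share was 8.77%. When the genes were ordered by log2 fold change and divided into 10 equal bins, the share was 9.49% in the bin with the lowest values (median -0.51) and 15% in the bin with the highest (median 0.43). The variant CACGCG, searched on both strands, was in 34.4% of genes called higher, in 13.4% of those called lower and in 22.1% of those not called. CATGTG, another E-box of the same length, was in 13.5%, 11.6% and 9.48%. GC content of the windows differed little, with medians of 65.0%, 64.7% and 64.3%. Genes called had more windows than the rest (1.63 and 1.56 per gene against 1.44). Counted per window, CACGTG was in 11.0%, 5.78% and 9.35%. These shares are descriptions of a sequence feature that the comparison did not use, and no test was made.

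Among the falls, which the rule limits to genes with a mean of 5 eRPKM or more in siCtrl, IGFBP5, a secreted binding protein of insulin-like growth factors, at chr2:217536828-217560272 (GRCh37), went from 30.1 and 33.0 to 8.68 and 7.27 eRPKM (log2 fold change -1.92 ± 0.13, adjusted p = 2.49e-07). FOXS1, a forkhead transcription factor, fell from 38.6 and 34.2 to 10.5 and 12.2 eRPKM (-1.64 ± 0.099), and AHNAK2, a giant scaffold protein, from 26.7 and 29.0 to 10.2 and 9.60 (-1.45 ± 0.11). In each of these genes both OHT libraries lay below both siCtrl libraries, which the rule required.

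MN1, a transcriptional coactivator, was at 16.7 and 18.2 eRPKM and then at 5.26 and 4.98 (-1.68 ± 0.26, adjusted p = 3.88e-04). Its SE was wider than the others, but the SE pools the spread of all 18 libraries. At 48 h the siCtrl libraries were farther apart (24.1, 13.5 and 16.4 eRPKM) than at 24 h. CNIH3, an auxiliary subunit of glutamate receptors, fell from 5.32 and 5.35 to 0.925 and 1.18 eRPKM (-1.92 ± 0.13). DRD1, a dopamine receptor, fell from 7.15 and 7.81 to 2.31 and 2.27 (-1.51 ± 0.19). The remaining 6 were LINC00511, a noncoding RNA (-1.73), the glucose transporter SLC2A12 (-1.58), the Wnt ligand WNT5B (-1.54), ARHGAP31, a GTPase-activating protein (-1.40), the stress-response sestrin SESN3 (-1.29) and the membrane protein LRRN1 (-1.28). SLC2A12 shares 2852 exon bases with TBPL1 on GENCODE, and its value may hold reads of that gene.

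Genes of ribosome production differed by list. All 46 genes of nucleolar ribosome biogenesis had positive log2 fold changes, with a median of 0.22, and 30 of them rose, beside 12.5% of all genes, but only RRP12 was called, beside 3.68% of all genes. RRP12, needed for export of both ribosomal subunits, had 23.8 and 23.0 eRPKM in siCtrl and 34.6 and 35.3 in siCtrl OHT (0.57 ± 0.080, adjusted p = 1.59e-04). IMP4, of the complex that processes the small subunit's RNA, went from 98.2 and 88.9 to 106 and 113 eRPKM (0.23 ± 0.068, adjusted p = 0.0247). Of 33 subunits of RNA polymerases I and III and their factors, 15 rose and 1 fell, with a median of 0.17. POLR3G, a subunit of RNA polymerase III, was the 1 call, from 18.4 and 19.7 to 35.4 and 35.6 eRPKM (0.88 ± 0.069, adjusted p = 1.18e-06). POLR1C, shared by polymerases I and III, went from 57.2 and 52.6 to 71.7 and 72.8 (0.39 ± 0.064), and it was called when the removal of duplicates was undone by calculation (0.50).

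The 76 mitochondrial ribosomal proteins tested had a median of 0.14, with 26 rises and no fall, while the 79 cytosolic ribosomal proteins had a median of 0.018, with no rise and 1 fall, and a median whose sign changed under 4 alternatives. RPL7 and RPLP0, the cytosolic members with the highest levels, were at 138 and 121, and at 129 and 115 eRPKM in siCtrl, and at 127 and 131, and at 116 and 126 in siCtrl OHT. These reach 78.4% and 72.7% of the ceiling, and in both the siCtrl library with fewer reads had the higher value. MRPL51 and MRPS34, at the top of the mitochondrial list, were near it too (63.3% and 64.6%), and their groups overlapped. MRPL51 shares 383 exon bases with NCAPD2, and MRPS34 shares 341 with EME2. Translation initiation factors (37 tested, 7 rises and 1 fall, median 0.077) and cytosolic aminoacyl-tRNA synthetases (20, 4 rises, 0.094) had no call. Over all genes tested, 12.5% rose and 14.0% fell. In EIF4H, EIF4G2 and QARS, which are highly expressed members, the groups overlapped, while NARS went from 62.7 and 61.5 to 66.7 and 68.0 (0.12, adjusted p = 0.0958).

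Among 31 genes of nucleotide synthesis, 12 rose and 1 fell, beside 12.5% and 14.0% of all genes, with a median of 0.13. The 2 calls were DHODH and DCTPP1 (3.68% of all genes were called higher). DHODH, an enzyme of pyrimidine synthesis in mitochondria, went from 12.1 and 11.7 to 18.1 and 18.4 eRPKM (0.60 ± 0.11, adjusted p = 0.00109). DCTPP1, which clears unusual deoxycytidine nucleotides, went from 36.5 and 32.4 to 47.1 and 52.0 (0.52 ± 0.094, adjusted p = 0.00115). DCTPP1 shares 645 exon bases with ZNF771, and its call was lost without replicate 2 of siCtrl (0.43) or of siCtrl OHT (0.45). Their E-boxes are shown above. ODC1, which starts polyamine synthesis and is a textbook target of Myc, rose from 98.5 and 84.9 to 104 and 107 (0.21 ± 0.067, adjusted p = 0.0356), at up to 64.1% of the ceiling. The antizyme OAZ1, its inhibitor, was at 72.0 and 62.8, and then at 67.6 and 73.7. Over the 12 polyamine genes the median was -0.012, with 3 rises, and it changed sign under 3 alternatives. All 21 chaperones and chaperonins had positive values (median 0.11) and 3 rose, but the groups overlapped in the highest, HSPA8 and HSP90AB1. The medians of these lists moved with the siCtrl library that was left out. Without siCtrl replicate 2, the deeper of the pair, they were 0.17 for nucleolar genes, 0.069 for mitochondrial ribosomal proteins, 0.065 for nucleotide synthesis, 0.042 for chaperones and 0.0010 for initiation factors. Without replicate 1 they were 0.25, 0.23, 0.19, 0.17 and 0.13.

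**Figure D3:**
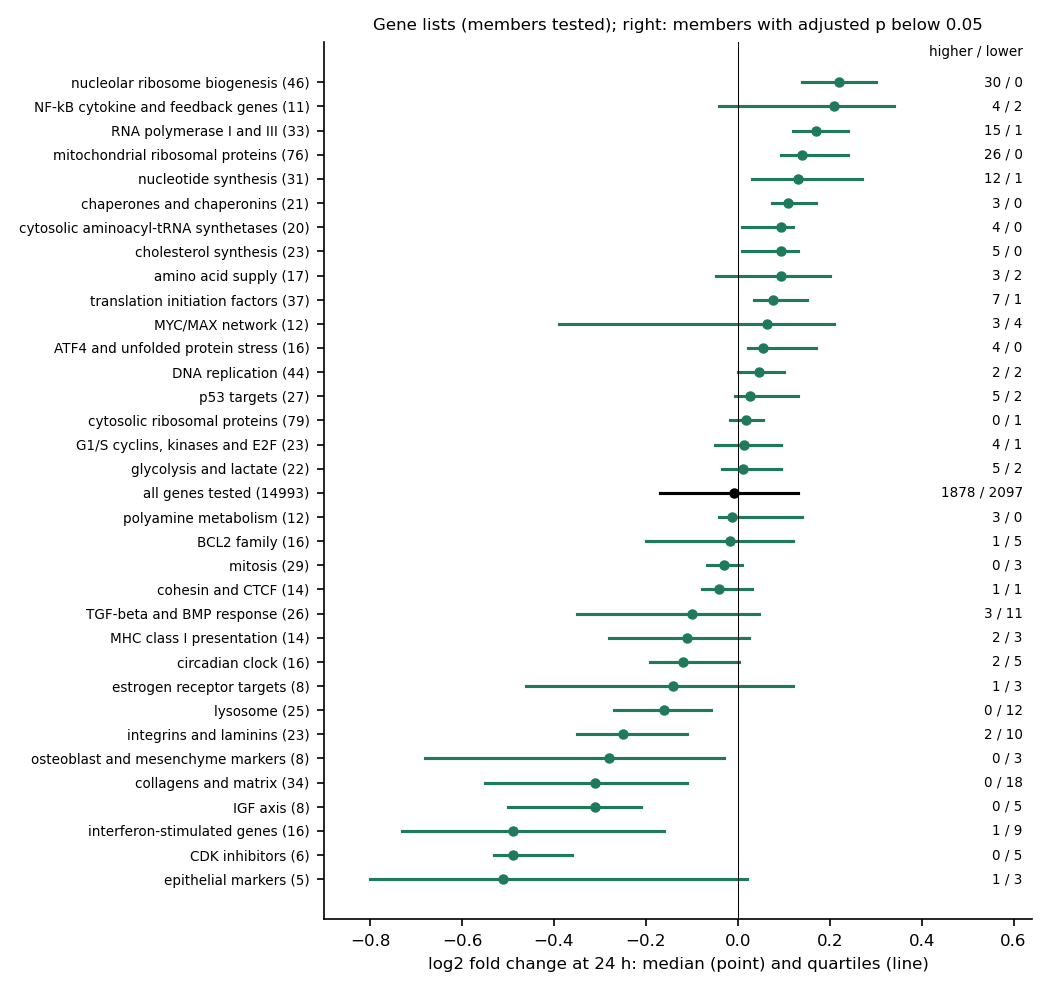
For each list of a pathway or cell type with at least 5 genes tested (number in brackets; the study's own lists are not drawn) and for all genes tested (black), the point gives the median log2 fold change at 24 h and the line its quartiles; numbers at the right count members that rose and fell by adjusted p. Nucleolar genes lie at the top (0.22) and epithelial markers at the bottom (-0.51), while the medians of cytosolic ribosomal proteins (0.018) and of G1/S genes (0.014) changed sign under some alternatives, and that of epithelial markers did when a mean of 5 eRPKM was required (0.24).

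Genes of the cell cycle engine were read against the 12.5% of all genes that rose and the 14.0% that fell. Of 44 DNA replication genes 2 rose and 2 fell (median 0.046), of 29 mitotic genes 3 fell (-0.031), and of 23 G1/S cyclins, kinases and E2F factors 4 rose and 1 fell (0.014). FEN1 and MCM7, of the replication fork, and CDC20 and BIRC5, of mitosis, were the members with the highest levels, and the 2 groups overlapped in each. CCND2, a D-type cyclin, rose in both OHT libraries, from 76.7 and 76.1 to 104 and 109 eRPKM (0.48 ± 0.038, adjusted p = 1.30e-06), just below the threshold for a call and at up to 64.2% of the ceiling. With the removal of duplicates undone by calculation, an alternative chosen after the data were seen, its value was 0.72, a call, as it was without siCtrl OHT replicate 1 (0.50). The other highly expressed member, E2F4, was at 69.6 and 62.0, and then at 69.2 and 73.0.

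Inhibitors of cyclin-dependent kinases hold back the cell cycle. All 6 tested had negative values (median -0.49), 5 fell and 3 were called lower, beside 5.10% of all genes. CDKN1C (p57) went from 6.63 and 6.33 to 4.38 and 4.2 eRPKM (-0.54 ± 0.13), CDKN2B (p15) from 1.28 and 1.17 to 0.612 and 0.787 (-0.53 ± 0.16) and CDKN2C (p18) from 32.3 and 28.8 to 20.9 and 21.4 (-0.52 ± 0.10). Each lay near the threshold. The call of CDKN2C was lost without siCtrl replicate 1 (-0.44), and that of CDKN1C under quantile normalization (-0.46). That of CDKN2B was lost without siCtrl replicate 1 (-0.48), siCtrl replicate 2 (-0.58, by its adjusted p) or siCtrl OHT replicate 1 (-0.42). It was also lost with a pseudocount of 1 (-0.39), under quantile normalization (-0.47) and with only the groups compared in the limma fit (adjusted p = 0.0744).

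Targets of p53 did not move as a group (27 tested, 5 rose, 2 fell, median 0.026). Over all genes tested, 12.5% rose and 14.0% fell. TP53INP1, a proapoptotic p53 target, was called lower, from 3.82 and 5.08 to 2.21 and 2.23 eRPKM (-0.85 ± 0.095, adjusted p = 2.40e-05), and the kinase PLK3 was called higher, from 18 and 16 to 25.1 and 24.9 (0.54 ± 0.11), a call that was lost without siCtrl replicate 2 (0.46). In the BCL2 family, 1 of 16 genes rose and 5 fell (median -0.016). BMF, which promotes apoptosis by binding BCL2 proteins, was the 1 called, from 3.98 and 4.41 to 1.51 and 1.24 (-1.32 ± 0.16, adjusted p = 3.75e-05). The survival factor MCL1 was at 73.8 and 70.6, and then at 70.6 and 71.9.

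Of 34 collagen and matrix genes tested, 18 fell (14.0% of all genes fell) and none rose, with a median of -0.31. Among them 10 were called lower (5.10% of all genes were). All 43 genes of the list summed to 847 to 878 eRPKM in siCtrl and to 687 to 697 in siCtrl OHT. COL5A1, a chain of type V collagen, had 11.9 and 11.8 and then 4.92 and 5.26 eRPKM (-1.15). Its SE of 0.34 was wide, but the SE pools the spread of all 18 libraries. At 48 h the siCtrl libraries were farther apart (17.7, 7.88 and 10.0 eRPKM) than at 24 h. The call was lost with any 1 of the 4 libraries left out, with log2 fold changes of -1.10 to -1.19. COL11A1 fell from 7.87 and 8.53 to 4.05 and 3.49 (-1.03 ± 0.094), LOXL2, which cross-links collagen, from 25.9 and 24.6 to 13.7 and 14.5 (-0.81 ± 0.068), and the matrix protease MMP14 from 37 and 36.6 to 21.3 and 21.0 (-0.78 ± 0.090). In these genes, picked as the largest calls of the list, the OHT libraries lay below both siCtrl libraries, as in 31.5% of all genes tested.

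Of 23 integrins and laminins, 10 fell and 2 rose (median -0.25), beside 14.0% and 12.5% of all genes. ITGB3 was called lower, from 2.40 and 3.30 to 1.03 and 1.04 eRPKM (-1.11 ± 0.17), as was ITGB8, from 10.8 and 14.3 to 7.99 and 7.78 (-0.63 ± 0.11), a call that was lost without siCtrl replicate 2 (-0.43). LAMC3, a laminin chain, was called higher, from 5.44 and 5.78 to 9.73 and 9.64 (0.74 ± 0.18, adjusted p = 0.00782). In the insulin-like growth factor axis all 8 genes tested had negative values (median -0.31), and 5 fell. Next to IGFBP5, IGFBP7 was called lower, from 13.3 and 10.7 to 7.65 and 6.94 (-0.67 ± 0.10).

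TGF-beta and BMP response genes went both ways, with 11 falls and 3 rises among 26 (median -0.10), beside 14.0% and 12.5% of all genes. LTBP2, which binds matrix fibrils (29.5 and 28.6, then 16 and 17.5 eRPKM, -0.78), and PMEPA1, a feedback inhibitor of TGF-beta signals (37.4 and 36.2, then 21.6 and 21.1, -0.77), were called lower. The ligand BMP6 (4.18 and 4.52, then 11.3 and 10.5, 1.24) and BAMBI, a decoy receptor (15.6 and 12.7, then 23.2 and 24.4, 0.73), were called higher. No value of these genes, picked as the largest calls of the list, overlapped between siCtrl OHT and siCtrl. The same held for 28.6% of all genes tested, higher with OHT, and for 31.5%, lower with it.

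The labelled cell type was checked against markers. U2OS is a bone tumour line, and of the osteoblast and mesenchyme markers VIM (119 and 105, then 106 and 113 eRPKM), S100A4 and COL1A1 were abundant, RUNX2 and ALPL were low, SP7 and BGLAP were below 1 eRPKM, and IBSP was listed at 0 in all 4 libraries. Of 8 tested, 3 fell, beside 14.0% of all genes, and none rose (median -0.28). CDH11, a cadherin of mesenchymal cells, fell from 8.27 and 9.27 to 4.22 and 3.85 (-1.03 ± 0.11), and RUNX2, the master factor of bone formation, from 5.34 and 5.64 to 3.53 and 3.08 (-0.66 ± 0.15), a call that was lost without siCtrl OHT replicate 2 (adjusted p = 0.0586). Epithelial markers also changed. EPCAM rose from 3.72 and 2.89 to 8.70 and 9.53 eRPKM (1.34 ± 0.16), whereas CLDN4, KRT14 and KRT5 were called lower (-0.86, -0.80 and -0.51). The 5 epithelial genes tested had a median of -0.51. All 8 genes of the list summed to 48.9 to 54.2 eRPKM in siCtrl and to 35.3 to 37.3 in siCtrl OHT. The call of KRT14 was lost without siCtrl replicate 1 (-0.59) or siCtrl OHT replicate 2 (-0.65), and that of KRT5 with any 1 of the 4 libraries left out (adjusted p = 0.0591 to 0.194).

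Markers of blood and endothelial cells were mostly near 0. Of 9 blood cell markers, HBB was listed at 0 in all 4 libraries, and PTPRC, CD3E, CD14, HBA1 and SPI1 were below 1 eRPKM. The 2 that could be tested were CD68 and LYZ. CD68 is a lysosomal protein that other cells express too (18.2 and 16.7, then 12 and 12.6, -0.49). LYZ encodes lysozyme, a secreted enzyme (2.35 and 1.87, then 1.88 and 2.18). Endothelial markers PECAM1, CDH5, VWF, KDR and TEK were below 1 eRPKM throughout, and CLDN5 went from 1.58 and 2.25 to 1.05 and 0.979, a call that was lost with siCtrl replicate 2 or either OHT library left out (adjusted p = 0.0689 to 0.188).

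Of 16 interferon-stimulated genes tested, 9 fell and 1 rose, and 7 were called lower, beside 5.10% of all genes (median -0.49, against -0.0085 over all genes). OASL, an antiviral protein of the oligoadenylate synthetase family, went from 1.80 and 1.82 to 0.351 and 0.418 eRPKM (-1.38 ± 0.21), IFI44 from 8.36 and 8.52 to 4.83 and 3.72 (-0.91 ± 0.099) and IFIH1, a sensor of double-stranded RNA, from 2.30 and 2.21 to 1.10 and 1.18 (-0.75 ± 0.12). IFI35 was at 1.61 and 1.64, and then at 0.780 and 0.557 (-0.87 ± 0.30, adjusted p = 0.0455), and its call was lost in 10 of the alternatives, among them with any 1 of the 4 libraries left out (adjusted p = 0.0836 to 0.220). Of 14 genes of MHC class I presentation, 2 rose and 3 fell (-0.11), beside 12.5% and 14.0% of all genes. NLRC5, their transactivator, was called higher (2.97 and 2.75, then 4.27 in both OHT libraries, 0.51), and the peptidase ERAP2 lower (-0.52). Both calls were lost without siCtrl replicate 2 (0.46 and -0.37) and with a pseudocount of 1 (0.45 and -0.45). That of NLRC5 was also lost with duplicate removal undone (0.50). That of ERAP2 was also lost without siCtrl OHT replicate 2 (-0.40), under quantile normalization (-0.45) and with only the groups compared in the limma fit (adjusted p = 0.0773).

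Of 11 cytokine and feedback genes of NF-kB, 4 rose and 2 fell (median 0.21), beside 12.5% and 14.0% of all genes. CXCL8, which attracts neutrophils, was called higher, from 3.54 and 4.26 to 11.3 and 10.6 eRPKM (1.39 ± 0.24), and the cytokines LIF (46.5 and 45.3, then 29.0 and 30.2, -0.62) and IL11 (16.6 and 15.9, then 9.88 and 11.1, -0.61) were called lower. The call of IL11 was lost with any 1 of the 4 libraries left out (adjusted p = 0.0798 to 0.173). In the list of ATF4 and unfolded protein stress genes, 4 of 16 rose and none fell (median 0.055), beside the same shares of all genes. ATF3, a stress-induced repressor, went from 12.6 and 11.6 to 22.3 and 22.8 (0.87 ± 0.22) and TRIB3, a pseudokinase induced by ATF4, from 25.2 and 23.5 to 35.6 and 38.0 (0.59 ± 0.066). The call of ATF3 was lost without replicate 2 of siCtrl or of siCtrl OHT (adjusted p = 0.0580 and 0.0536).

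Metabolic and lysosomal genes were read against the same shares, 12.5% of all genes that rose and 14.0% that fell. Of 22 glycolytic genes, 5 rose and 2 fell (median 0.011). HK2, the hexokinase that many tumours induce, was at 10.2 and 10.0 eRPKM in siCtrl and at 22.5 and 21.4 in siCtrl OHT (1.08 ± 0.068, adjusted p = 2.01e-07). PDK1, a kinase that inhibits pyruvate dehydrogenase, rose from 7.32 and 7.39 to 12.6 and 11.1 (0.66 ± 0.098). In amino acid supply (17 tested, 3 rose, 2 fell), the transporter SLC43A1 was called lower (6.41 and 6.25, then 3.76 and 4.23, -0.61), and SLC3A2 was at 82.7 and 75.3, and then at 83.5 and 90.2. Of 23 cholesterol synthesis genes 5 rose (median 0.094), and SQLE, an early enzyme of the sterol branch, was not among them (0.061). Lysosomal genes fell in 12 of 25 cases and none rose (-0.16), without a call: PSAP, which activates lysosomal lipid hydrolases, went from 89.0 and 82.1 to 73.6 and 77.0 (-0.18, adjusted p = 0.0169), and LAMP1 overlapped between the groups.

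Of 16 clock genes, 2 rose and 5 fell (-0.12), beside 12.5% and 14.0% of all genes. The repressor NR1D1 was called higher (7.54 and 7.13, then 11.2 and 10.5 eRPKM, 0.54), a call that was lost with any 1 of the 4 libraries left out (adjusted p = 0.0567 to 0.105), and its relative NR1D2 fell (-0.18). NR1D1 shares exon bases with THRA. Targets of the estrogen receptor were examined because OHT binds it. Of 15 such genes 8 could be tested, with 1 rise and 3 falls. CA12 was called higher (31.1 and 30.1, then 50.7 and 51.3, 0.73). GREB1 (1.71 and 1.98, then 1.02 and 1.01, -0.63) and SERPINA1 (16 and 14.2, then 9.79 and 9.53, -0.62) were called lower, while TFF1 and PGR were below 1 eRPKM. The call of GREB1 was lost with a pseudocount of 1 (-0.50).

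The study's own lists of genes raised or lowered by MycER, with and without Myc at the promoter, were chosen on the 48 h libraries, and they gave the following values at 24 h. Of 707 genes raised at 48 h with Myc at the promoter, 617 rose at 24 h and 260 were called (median 0.42), and of 465 raised without it, 325 rose and 200 were called (0.45). Of 332 genes lowered with Myc at the promoter, 231 fell, 118 were called lower and 1 was called higher (-0.42), and of 1020 lowered without it, 699 fell and 453 were called (-0.47). Since these lists were chosen on samples of the same series, they are not independent evidence of direction.

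At 48 h, the same treatment was sampled in other libraries, and 1166 genes were called higher (7.78%) and 1518 lower (10.1%). Of the 551 genes called higher at 24 h, 461 were also called higher at 48 h, which is 83.7% of the 24 h list and 39.5% of the 48 h list. Of the 765 called lower, 596 were called lower at 48 h (77.9% and 39.3%). Log2 fold changes at the 2 times correlated at r = 0.722 across 14993 genes. The genes share depth and length at both times and are not independent replicates. The genes called at 24 h, which were chosen on their 24 h values, had median log2 fold changes of 0.84 and -0.78 at 48 h. The difference between the times was tested as an interaction, which called 266 genes (1.77%), 107 with a higher and 159 with a lower value at 48 h. The effect was called stronger at 48 h for 25 of the genes called higher at 24 h and weaker for 9, and for 37 and 13 of those called lower. The count of 266 fell to 130 without siCtrl 24 h replicate 1, to 114 without siCtrl OHT 24 h replicate 1 and to 96 when only the groups compared entered the fit.

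Of the genes with the largest differences, KRT34, a hair keratin, was at 11.5 and 10.5 eRPKM in siCtrl and at 11.2 and 10.4 in siCtrl OHT at 24 h, and its log2 fold change went from -0.031 at 24 h to 1.32 at 48 h (difference 1.35, adjusted p = 7.62e-04). At 48 h it was at 5.27, 6.88 and 7.04 eRPKM without OHT and at 14.8, 18 and 17.0 with it. TRAF1, an adaptor of TNF receptors, had log2 fold changes of 0.46 and 1.78 (difference 1.32), with 2.89, 3.01 and 2.96 eRPKM in siCtrl and 11.6, 12.1 and 10.5 in siCtrl OHT at 48 h. Without OHT it was thus lower at 48 h than the 6.65 and 6.28 of 24 h. G0S2 had log2 fold changes of 2.16 and 3.59 (1.43), with siCtrl values of 0.640, 0.934 and 1.25 eRPKM at 48 h against 3.13 and 2.87 at 24 h. Its values with OHT overlapped between the times (14.1, 18.6 and 17.5 at 48 h). RGS16 had log2 fold changes of 2.15 at 24 h and 0.87 at 48 h (difference -1.28, adjusted p = 7.62e-04), and it was higher at 48 h in both groups, with 12.9, 12.9 and 9.68 eRPKM in siCtrl and 22.5, 23.2 and 19.8 in siCtrl OHT. The adhesion receptor ADGRL3 had -0.43 and -1.90 (-1.47), KRT14 -0.80 and -2.24 (-1.44) and the membrane protein PLXDC2 -0.51 and -1.91 (-1.39). In these 3 genes siCtrl values at 48 h all lay above those at 24 h, from 5.27 and 6.25 to 15.3, 13.6 and 13.3 eRPKM for ADGRL3. The 24 h call of PLXDC2 was lost without replicate 2 of siCtrl or of siCtrl OHT (-0.47 and -0.49). RRP12, POLR3G and HK2, called at 24 h, had larger log2 fold changes at 48 h (1.17, 1.41 and 1.78), as TRIB3 had (1.10), and the differences were called. CDKN2C (-1.05), TP53INP1 (-1.41), MXD4 (-1.59), COL11A1 (-1.83) and SESN3 (-2.27) had lower ones. A difference between the times can thus lie in the siCtrl level as well as in the OHT level. The nucleolar list had a median of 0.51 at 48 h with 23 of 46 genes called higher, beside 7.78% of all genes.

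**Figure D4:**
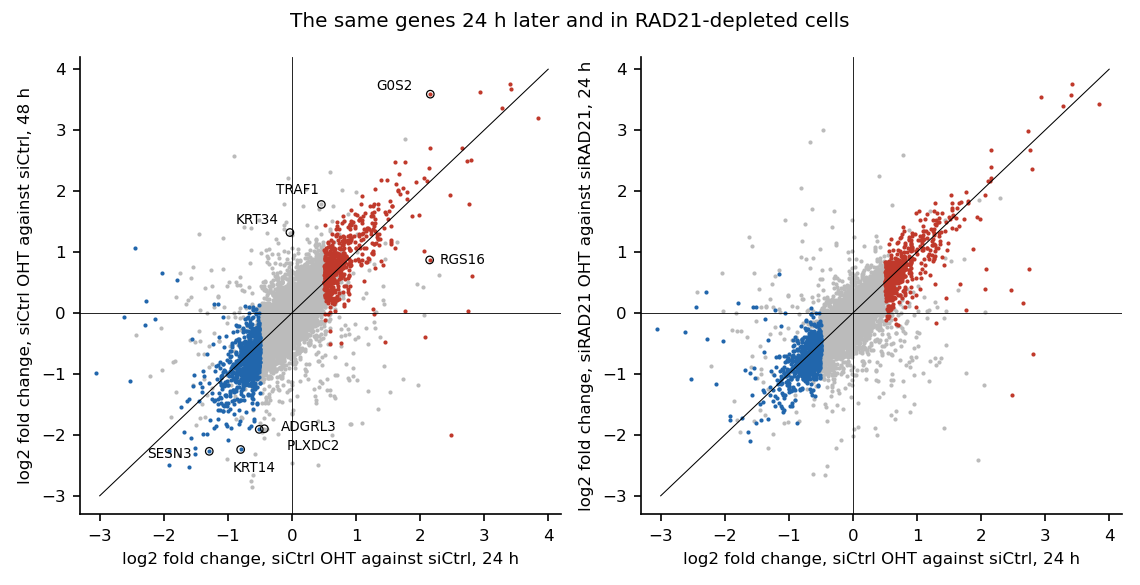
Each point is a gene tested, with its log2 fold change with OHT at 24 h under siCtrl on the x axis and, on the y axis, at 48 h under siCtrl (left) or at 24 h under siRAD21 (right); red and blue mark genes called higher and lower at 24 h, and the diagonal marks equal values. Correlations across genes were 0.722 and 0.728, and circled genes on the left are among those whose effect differed between the times.

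Under siRAD21, OHT called 643 genes higher (4.29%) and 1142 lower (7.62%) at 24 h. They include 413 of the 551 genes called higher under siCtrl (75%, and 64.2% of the siRAD21 list) and 600 of the 765 called lower (78.4% and 52.5%), and log2 fold changes correlated at r = 0.728 across genes. Among the leading genes, PDE1B rose by 3.76 and CR2 by 3.39 on the log2 scale, and IGFBP5 fell by 1.69. DRD1 was near 0 under siRAD21 already without OHT (0.265 and 0.235 eRPKM, against 7.15 and 7.81 under siCtrl), below the level at which such a fall could be measured, and had 0.280 and 0.322 eRPKM with OHT. Its log2 fold change was 0.095 there and -1.51 under siCtrl, and the difference was not called (adjusted p = 0.107). The test of the difference between the siRNAs in limma called 0 genes (0%), with 906 at an unadjusted p below 0.05, and its smallest adjusted p was 0.107. Other settings called a few: 19 with voom on recovered reads, 12 after quantile normalization, 12 with the trend on GC content and length removed, 5 without a filter on low values and 4 with the replicate block. With 2 libraries in each of these groups a missed call does not show equal effects.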

How the data were processed

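RNA was measured by RNA-seq in 18 libraries of U2OS-MycER cells in 8 groups, described by the study as biological replicates. The authors depleted rRNA, sequenced unstranded libraries as 50-base reads, aligned them to hg19 (TopHat2 2.0.8, per the submitters' processing notes), removed PCR duplicates, counted reads on exons (featureCounts 1.4.5) and deposited RPKM values for exons (eRPKM).

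Here, log2(eRPKM + 0.5) of genes averaging 1 eRPKM or more was fitted with limma 3.58.1 (R 4.3.3; moderated statistics with a variance trend, Benjamini-Hochberg adjustment) over all 18 libraries with 8 group means. A call required both adjusted p < 0.05 and an absolute log2 fold change over 0.5. The design assumed these values. Whole reads were recovered for 22033 of 22040 genes with any value, within 0.01 reads, and gave depths of 9647501 to 12678599 reads; counting error only is covered by intervals. The siRAD21 OHT 48 h libraries differed by no more than sampling noise (chi-square per gene 0.979), and those of siRAD21 24 h by little more (1.043). The other pairs of libraries within groups gave 1.457 to 4.233. The fit with the siRAD21 OHT 48 h libraries averaged was an alternative, and none was made for siRAD21 24 h.

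The members and lists were chosen with earlier results of these data known. Genes were named by rule: MYC, MAX, RAD21 and ESR1; the 12 largest rises and falls among calls averaging 5 eRPKM or more in 1 group, no overlap between groups, and no symbol starting with MIR or SNOR; in each list up to 4 called members by size, filled to 2 with the highest levels; and the 3 largest called differences in each direction between times and between siRNAs. Coordinates and overlaps come from GENCODE on GRCh37, which matched 22370 of 23399 symbols, 1216 of them as older symbols. Not every overlap is given with its gene: MAX shares 822 exon bases with FNTB and SLC27A2 shares 557 with ATP8B4, for example. Scripts were tested on simulated data. Alternatives covered pseudocounts, filters, centring, quantile normalization, replicate blocks, the variance model, voom on recovered reads, GC content and length, fold thresholds, each library left out and, chosen after seeing the data, the removal of duplicates undone and crossed replicate numbers. Some genes that the rule names are not reported here.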

Additional observations from a re-analysis of the deposited data

Results flagged for a closer look

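The effect of OHT differed between 24 h and 48 h for 266 genes, by the interaction term in limma with the fold threshold applied to the difference. Among the genes named in the report, the difference on the log2 scale (48 h minus 24 h) was above 0 for CAMKV (0.69), G0S2 (1.43), RRP12 (0.60), POLR3G (0.53), HK2 (0.70), TRIB3 (0.52), TRAF1 (1.32), KRT34 (1.35) and CLDN4 (0.64). It was below 0 for RGS16 (-1.28), SESN3 (-0.98), MXD4 (-0.77), CDKN2C (-0.54), TP53INP1 (-0.56), COL11A1 (-0.80), ITGB8 (-0.77), IFI44 (-0.59), KRT14 (-1.44), ADGRL3 (-1.47) and PLXDC2 (-1.39). In CLDN4 and RGS16 the log2 fold change was smaller in size at 48 h, and in the others it was larger. These differences hold changes of the siCtrl level between the times too, as in G0S2, whose values with OHT overlapped between 24 h and 48 h. The 24 h and 48 h libraries were separate, and handling that differed between the times cannot be told apart from time.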

How the results depend on the processing

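The count of 1316 genes called at 24 h was 742 with a mean of at least 5 eRPKM required, 3975 without a fold threshold and 224 with a log2 threshold of 1. It was 1115 to 1236 with 1 library left out and 1086 to 1572 under the other alternatives. The labels do not say whether same-numbered siCtrl and siCtrl OHT libraries at 24 h come from 1 culture or day. Their deviations from the group means correlated at r = -0.134. With 2 libraries per group this is a single mirrored value, which cannot decide the question. The numbers were not treated as pairs. The replicate block gave 1324 genes, and 1340 with the siCtrl numbers crossed, chosen after seeing the data. The 266 differences between times became 96 with only the groups compared, 625 without a fold threshold, 50 with a threshold of 1, 271 with the replicate block and 114 to 296 with 1 library left out. The 0 differences between siRNAs became 5 without a filter, 12 with quantile normalization, 12 after correction for GC content and length, 4 with the replicate block and 19 with voom. The E-box share of 17.0% was 34.4% for CACGCG and 13.5% for CATGTG. Of 75 named genes called, 20 lost the call somewhere and 0 changed sign. Sign changed only in genes that were not called. Under quantile normalization the log2 fold change was -0.015 for MCM7, 0.0036 for CDC20, -0.028 for LAMP1, 0.020 for LYZ, -0.0050 for MRPL51 and 0.013 for RPLP0. After correction for GC content and length it was -0.0076 for HSPA8, -0.0089 for HSP90AB1, -0.0094 for LAMP1, -0.040 for MRPL51 and -0.050 for RPL7. Centred on the median it was 0.0058 for CDC20 and 0.0080 for RPLP0, which had 0.0002 with duplicate removal undone. With 1 library left out it ranged from -0.090 to 0.0061 for RAD21, from -0.039 to 0.12 for EIF4H, from -0.028 to 0.17 for OAZ1, from -0.043 to 0.11 for HSPA8, from -0.054 to 0.12 for HSP90AB1, from -0.092 to 0.052 for FEN1, from -0.062 to 0.11 for MCM7, from -0.10 to 0.084 for CDC20, from -0.032 to 0.12 for BIRC5, from -0.052 to 0.014 for MCL1, from -0.077 to 0.093 for LAMP1, from -0.18 to 0.090 for LYZ, from -0.13 to 0.13 for MRPL51, from -0.095 to 0.10 for RPL7, from -0.087 to 0.080 for RPLP0 and from -0.092 to 0.030 for KRT34. The causes were not tested. The inferred ceiling would limit fold changes of the most expressed genes, and 2 libraries per group limit precision.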

Other observations

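A few genes were called in opposite directions in other comparisons, and they are named here after their values were seen. SMOC1, a secreted calcium-binding matrix protein, had 0.840 and 0.874 eRPKM in siCtrl and 1.67 and 1.46 in siCtrl OHT at 24 h. Its log2 fold change was 0.60 at 24 h and -0.51 at 48 h, where it was called lower. SLN, a small regulator of the calcium pump of muscle, had 4.26 and 3.35 eRPKM in siCtrl and 1.22 and 1.67 in siCtrl OHT, a log2 fold change of -1.15, while under siRAD21 it was called higher (0.64). In limma the difference between the siRNAs was not called for SLN or for any other gene (smallest adjusted p = 0.107). SLN rested on 11 to 34 reads in each of the 4 libraries.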
